A study of Mus musculus with 6 samples.

Results

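Mt1 and Mt2 are the 2 metallothionein genes described here, out of 11108 genes with values in an RNA-seq study of mouse hematopoietic stem cells. They were chosen by gene symbol, and with their values in these libraries known, so the difference between genotypes is given for both as a description with no test. The study compared stem cells from the bone marrow of wild-type (WT) mice and of mice lacking Mcph1 (Mcph1-/-), which encodes microcephalin, a regulator of chromosome condensation and of checkpoint signalling after DNA damage. There were 3 libraries per genotype, each prepared by the Smart-seq2 protocol, which copies whole transcripts from few cells, from 200 cells sorted as Lineage-, Sca-1+, c-kit+, CD34- and CD150+. No treatment was given, and the labels do not state the animals' age or strain, which part of Mcph1 was deleted, or whether the 3 libraries of a group come from different mice. The p-values given below for other genes therefore reflect the spread among these libraries alone, and that spread may be technical.

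Metallothioneins are small cysteine-rich proteins of the cytosol and nucleus that bind zinc and copper, and also toxic metals such as cadmium. Their transcription is raised by the zinc-sensing factor MTF1, which binds metal response elements upstream of the genes, and they are also known to be induced by glucocorticoids and oxidative stress.

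Both genes lie on the plus strand of chromosome 8 of mm10, with Mt2 (ENSMUSG00000031762) upstream of Mt1 (ENSMUSG00000031765). Mt2 spans 94172664 to 94173568 and Mt1 spans 94179082 to 94180327, which leaves 5513 bases between them. Each has a protein-coding transcript of 3 exons, 511 bases long for Mt2 and 549 for Mt1, with a coding sequence of 186 bases. The coding sequences are printed to show how far the members can be told apart by reads, from the GENCODE transcripts, with the bases that differ in capitals.
Mt1: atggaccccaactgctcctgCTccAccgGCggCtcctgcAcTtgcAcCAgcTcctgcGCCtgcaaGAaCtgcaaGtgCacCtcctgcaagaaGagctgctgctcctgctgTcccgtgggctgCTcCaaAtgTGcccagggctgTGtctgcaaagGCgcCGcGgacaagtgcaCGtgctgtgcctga
Mt2: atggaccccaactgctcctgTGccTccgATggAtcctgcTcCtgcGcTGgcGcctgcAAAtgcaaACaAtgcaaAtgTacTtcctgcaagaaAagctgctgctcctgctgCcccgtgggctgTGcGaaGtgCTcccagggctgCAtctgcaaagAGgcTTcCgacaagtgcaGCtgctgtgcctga
They are identical at 148 of 186 bases (79.6%). The longest run shared by the whole transcripts is 20 bases, against reads of 150 bases, so the members do not share reads as near-identical copies would. Mt2 has another neighbour in the same place: the noncoding gene Gm45774 on the minus strand covers 355 of the 511 bases of the Mt2 transcript. No strand setting is given, so reads of Mt2 and of Gm45774 cannot be told apart over these bases and the level of Mt2 is uncertain in every library. Gm45774 itself has no values here, and whether the overlap removed reads from the Mt2 count or added some is not known. No annotated gene overlaps Mt1.

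The upstream sequence of Mt2 is printed because both genes are known targets of MTF1 and were high in the same libraries. It is taken from the RefSeq promoter table (GRCm38.p6) and ends at the base before the RefSeq start. It is the plus strand at chr8:94172368-94172617, with capitals for matches to TGCACNC or TGCGCNC, used here as 2 forms of the metal response element core, and to TGACNNNGC, the core of the antioxidant response element. The stretch also lies within the exon of Gm45774.
Mt2 upstream: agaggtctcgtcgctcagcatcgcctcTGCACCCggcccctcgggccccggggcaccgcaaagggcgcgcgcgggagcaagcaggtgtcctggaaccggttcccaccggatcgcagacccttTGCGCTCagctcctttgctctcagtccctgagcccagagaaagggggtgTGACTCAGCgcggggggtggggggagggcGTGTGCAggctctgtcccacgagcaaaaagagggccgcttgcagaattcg
For Mt1 only the matches are printed, with the bases around them, since an annotated transcript begins inside its window, at 94179082, before its RefSeq start. They are the sites in the table's window of 300 bases, which runs from 94178839 to 94179138 around a RefSeq start at 94179089.
Mt1 site at -23: tcccgctgTGCACACtggcgctc
Mt1 site at 3: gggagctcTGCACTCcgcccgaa
Mt1 site at 21: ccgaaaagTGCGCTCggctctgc
Positions count from 1 at the RefSeq start, with no position 0. On both strands of the 300-base windows, Mt1 held 3 matches to either form of the metal response element core and Mt2 held 4. The Mt1 matches at 3 and 21 and the last Mt2 match lie past the RefSeq start of their gene. At least 1 match was found in 25.7% of 32851 windows of the same length, at least 3 in 1.97% and at least 4 in 0.517%. Taken alone, TGCACNC occurred in 12.6% of windows and TGCGCNC in 15.4%. The antioxidant response element core occurred once in the window of Mt2, as in 12.4% of windows, and these letters are not in the window of Mt1. No match in these 2 windows overlapped another. Other annotated transcripts begin past the windows, at 94179211 and 94179241 for Mt1 and at 94172860 for Mt2. The bases between each window's end and those starts were not searched. A match of letters is not a bound site.

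Libraries held 8102605 to 10455908 reads on the listed genes. Mcph1 was read in every library and did not separate the genotypes, with normalised read counts of 160, 341 and 34.4 in the WT libraries against 428, 37.7 and 234 in the Mcph1-/- libraries. Since the extent of the deletion is unknown, these counts are no check of the genotype, and each direction below rests on the labels. All 12 stem cell markers looked for have values, but Slamf1, which encodes the CD150 of the sort, was at 0 in WT replicate 1 and at 0.893, or 1 read, in Mcph1-/- replicate 3. Cd34 was read in all 6 libraries, at 201 to 569.

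Mt1 was higher in every Mcph1-/- library than in any WT library. Its normalised read count, which is reads divided by a size factor for the library, was 1075, 1581 and 1159 in WT replicates 1 to 3. In Mcph1-/- replicates 1 to 3 it was 3216, 3238 and 5015. The groups did not overlap: the lowest Mcph1-/- library was 2.03 times the highest WT library, and Mcph1-/- replicate 3 stood above the other 5 libraries. Means were 1272 ± 272 in WT against 3823 ± 1033 in Mcph1-/- (SD, n = 3), which is a 3.01-fold ratio. The difference of mean log2(value + 1), Mcph1-/- minus WT, was 1.58 (SE 0.26). These values rest on 991 to 1535 reads in the WT libraries and on 3525 to 5617 in the Mcph1-/- libraries.

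Mt2 was also higher in every Mcph1-/- library than in any WT library, with a larger log2 difference than Mt1 and fewer reads behind it. It stood at 84.6, 74.2 and 116 in WT replicates 1 to 3, and at 452, 692 and 917 in Mcph1-/- replicates 1 to 3. Here too the groups did not overlap, and the lowest Mcph1-/- library was 3.89 times the highest WT library. Means were 91.7 ± 22.0 in WT against 687 ± 232 in Mcph1-/- (SD, n = 3), with a ratio of 7.49, and the difference of mean log2(value + 1) was 2.86 (SE 0.59). WT libraries held only 72 to 115 reads of Mt2, against 496 to 1027 in Mcph1-/-. The 95% Poisson interval of the normalised count was 96.1 to 140 in WT replicate 3, the highest of its group, and 414 to 494 in Mcph1-/- replicate 1, the lowest of its group. Such intervals cover counting error only, since these reads carry no molecular identifiers.

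**Figure D1:**
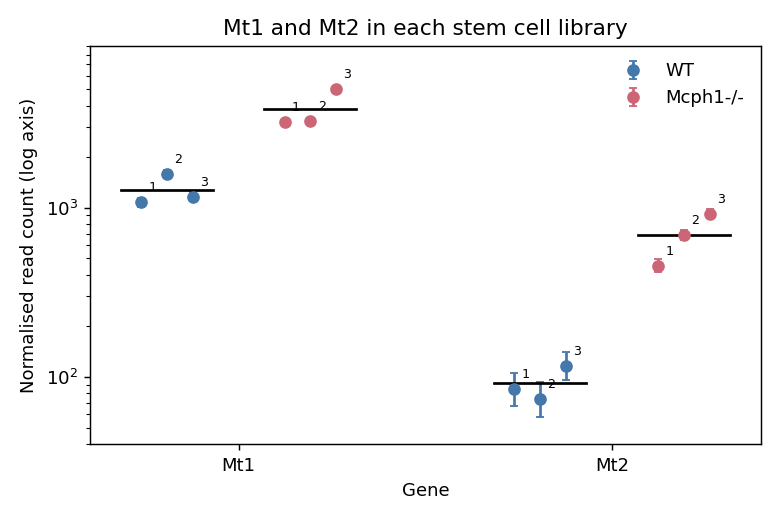
Normalised read count (log axis) of Mt1 and Mt2 in each library, with WT in blue and Mcph1-/- in red; digits give the replicate, black lines the group means, and bars the 95% Poisson interval of the count. For both genes all 3 Mcph1-/- libraries sit above all 3 WT libraries, at 3216 to 5015 against 1075 to 1581 for Mt1 and 452 to 917 against 74.2 to 116 for Mt2.

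Such a separation was common in these libraries. Of 10846 tested genes, 803 (7.40%) had groups that did not overlap with Mcph1-/- higher, and 738 (6.80%) with Mcph1-/- lower. The fit across all genes (limma-trend, Benjamini-Hochberg adjusted p under 0.05) called 4 genes (0.0369%), and neither Mt1 nor Mt2 was among them. Calls depended on the tool: on the recovered reads, edgeR's quasi-likelihood test called 2 genes (0.0184%) and neither member, while DESeq2 called both members among 234 of the 5369 genes to which it gave an adjusted p (4.36%). No result about the pair is read from these counts, since its members were chosen on this contrast.

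The order of the libraries was similar for both genes but not the same. For Mt1 the order from high to low was Mcph1-/- replicates 3, 2 and 1, then WT replicates 2, 3 and 1. Counting intervals overlapped between Mcph1-/- replicates 1 and 2 (3110 to 3324 and 3138 to 3340) and between WT replicates 1 and 3 (1009 to 1144 and 1093 to 1228), so those neighbours are not told apart by depth. For Mt2 the Mcph1-/- libraries came in the same order, while WT replicate 3 was highest and WT replicate 2 lowest of the WT libraries. Intervals of all neighbouring WT pairs overlapped for Mt2, being 58.0 to 93.4 in replicate 2, 66.9 to 106 in replicate 1 and 96.1 to 140 in replicate 3. Over the 6 libraries the log2 values of the pair had a Pearson r of 0.94 and a Spearman rho of 0.83, a description in which the libraries of a genotype share their level.

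Within a genotype the libraries differed less than the genotypes did. The within-group SD of log2(value + 1) was 0.33 for Mt1 and 0.43 for Mt2. Highest over lowest library came to 1.47 in WT and 1.56 in Mcph1-/- for Mt1, and to 1.57 and 2.03 for Mt2.

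Mt1 made up most of the metallothionein reads, and less so in the Mcph1-/- libraries. The ratio of Mt1 to Mt2 normalised counts was 12.7, 21.3 and 9.96 in WT replicates 1 to 3. It was 7.11, 4.68 and 5.47 in Mcph1-/- replicates 1 to 3, so the groups did not overlap. Mean ratios were 14.7 ± 5.93 in WT against 5.75 ± 1.24 in Mcph1-/- (SD, n = 3), and the difference of mean log2 ratios was -1.28. The nearest libraries, WT replicate 3 and Mcph1-/- replicate 1, had exact 95% binomial intervals of 8.21 to 12.2 and 6.47 to 7.82. These cover counting error within each library only, not the spread between libraries, and are no test of the genotypes. Mt2 made 4.48% to 9.13% of the summed count of the pair in WT and 12.3% to 17.6% in Mcph1-/-. That sum was 1363 ± 260 in WT against 4510 ± 1239 in Mcph1-/- (SD, n = 3). The ratio, the share and the sum all carry the uncertainty of the Mt2 level that its overlap with Gm45774 brings.

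**Figure D2:**
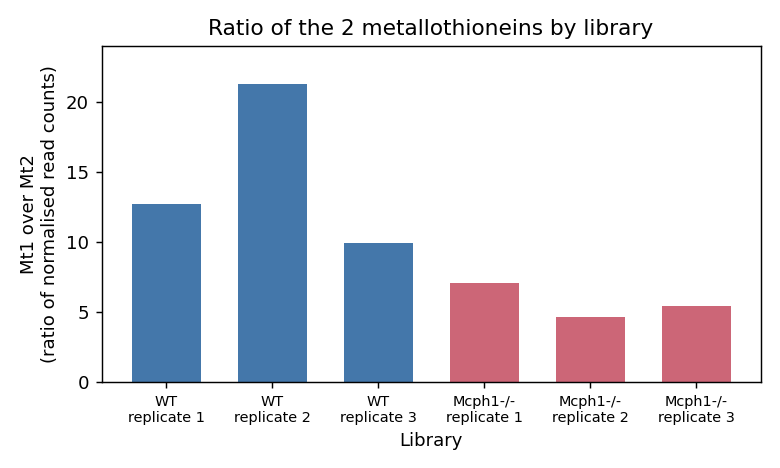
Ratio of the Mt1 to the Mt2 normalised read count in each library, with bars from 0, WT in blue and Mcph1-/- in red. WT libraries lie between 9.96 and 21.3 and Mcph1-/- libraries between 4.68 and 7.11.

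Levels of the members can be compared with each other only per length. Per kilobase of the 3-exon transcript, Mt1 was 11.8, 19.8 and 9.27 times Mt2 in WT replicates 1 to 3 and 6.61, 4.36 and 5.09 times in Mcph1-/- replicates 1 to 3. Annotated exons of Mt1 add up to 1246 bases when a transcript that keeps the introns is included, and those of Mt2 to 588. On that scale the ratio was 4.70 to 10.1 in WT and 2.21 to 3.35 in Mcph1-/-. By these counts Mt1 was the higher gene in all 6 libraries on both scales. How far the overlap with Gm45774 alters the Mt2 count, and so these ratios, is not known. Among listed genes with an annotated length, the level of Mt1 per kilobase of annotated exon ranked between 699 and 992 in WT and between 185 and 323 in Mcph1-/-. Mt2 ranked between 2955 and 3788 in WT and between 557 and 1048 in Mcph1-/-.

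The other genes around the pair did not separate the genotypes. Within 150 kb of Mt1 or Mt2, 3 other genes have values. Mt3 and Mt4, the metallothioneins best known from brain and from stratified epithelium, have no values here. The table holds only genes read in 4 or more libraries, so one read in fewer would have no values. Of these 3 neighbours, 0 passed the test over all genes by limma-trend, and 0 had groups that did not overlap in either direction. The same fit had an unadjusted p under 0.05 for 836 genes (7.71%).
Nup93, a scaffold of the nuclear pore and the nearest neighbour with values, at 34.2 kb, was at 0, 0 and 525 in WT replicates 1 to 3 and at 596, 605 and 468 in Mcph1-/- replicates 1 to 3. Its log2 difference was 6.10 (SE 2.38), with those 2 WT libraries at 0. A count of 0 allows up to 3 reads, a normalised count of 3.25 and 3.09 in those WT libraries, and WT replicate 3 lay among the Mcph1-/- values.
Ogfod1, an oxygenase of ribosomal protein, was at 105, 227 and 72.9 in WT and 140, 35.3 and 53.6 in Mcph1-/- (log2 difference -0.89, SE 1.11). Nudt21, a subunit of the cleavage factor for messenger RNA ends, was at 58.6, 83.5 and 56.7 in WT and 81.2, 126 and 161 in Mcph1-/- (0.84, SE 1.01). All 3 overlapped between genotypes, while Mt1 and Mt2 between them did not.

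**Figure D3:**
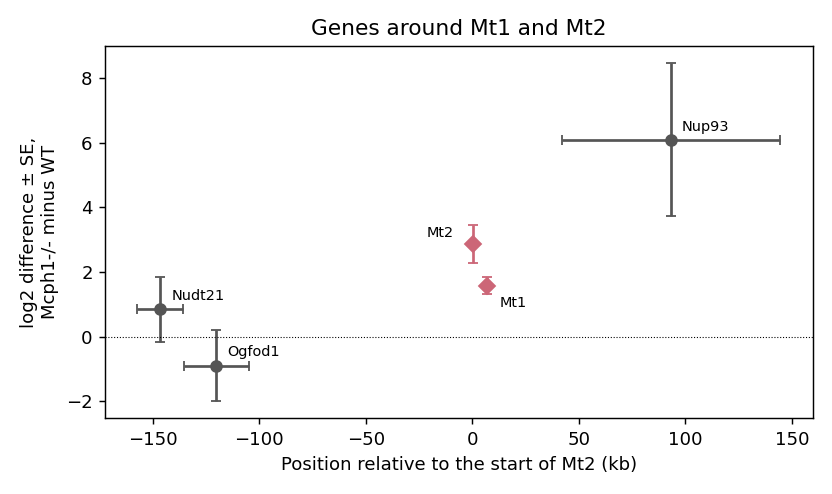
Log2 difference of normalised read count + 1 (Mcph1-/- minus WT) with its SE against position from the start of Mt2 in kb, horizontal bars giving each gene's extent, for the 5 genes with values within 150 kb. Mt2 (2.86) and Mt1 (1.58) have short bars; Nup93 has the highest value and a wide one, with 0 reads in 2 WT libraries.

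MTF1 targets and zinc transporters were looked at next, since Mt1 and Mt2 belong to the zinc response. Of 25 genes in the list of zinc transporters and metal sensing, 12 have values and were tested: 8 were higher and 4 lower in Mcph1-/- by their mean log2 values, and 0 passed over all genes. The median log2 difference was 0.57, beside 0.08 over all tested genes, of which 53.8% were higher. On the recovered reads that median was 0.32 by edgeR and 0.28 by DESeq2, beside 0.01 and -0.03 over all tested genes. Slc30a1, the zinc exporter that MTF1 induces, has no values here.
Mtf1 itself stood at 138, 79.3 and 381 in WT and 351, 249 and 95.5 in Mcph1-/-, a log2 difference of 0.33 with an SE of 0.89 (limma adjusted p = 0.938). Slc39a10, a zinc importer that MTF1 is known to repress, was at 216, 98.9 and 6.07 in WT and 43.8, 74.6 and 129 in Mcph1-/- (limma adjusted p = 0.948). Neither gene separated the genotypes.
Slc39a13, a zinc transporter of the secretory pathway, was the 1 member whose groups did not overlap, beside 7.40% of all tested genes with Mcph1-/- higher. It was at 31.4, 11.3 and 77.9 in WT and at 116, 304 and 152 in Mcph1-/-, with a log2 difference of 2.48 (SE 1.22; limma adjusted p = 0.662). Slc30a6 was at 0, 397 and 496 in WT and 190, 653 and 469 in Mcph1-/-, and Slc39a6 at 118, 33.0 and 23.3 in WT and 109, 0 and 0 in Mcph1-/-. These 3 genes had the smallest p-values of the list, and the latter pair overlapped between genotypes.

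Copper and iron genes were split between higher and lower. Of 12 tested copper genes, 7 were higher and 5 lower, with a median log2 difference of 0.03 (0.17 by edgeR and 0.14 by DESeq2), and 0 passed over all genes by limma-trend. Atp7b, a copper-exporting pump, was the 1 member whose groups did not overlap, beside 7.40% of all tested genes with Mcph1-/- higher. It was at 95.4, 0 and 43.5 in WT and 190, 157 and 296 in Mcph1-/- (limma adjusted p = 0.662). Next by p-value came Ccs, the copper chaperone of superoxide dismutase, with a log2 difference of 0.59 (SE 0.30), and the copper importer Slc31a1 with 0.81 (SE 0.49). Sod1, the copper and zinc superoxide dismutase, stood at 16582 ± 3249 in WT against 16525 ± 1312 in Mcph1-/- (SD, n = 3), a log2 difference of 0.01 (SE 0.17).
Among 18 tested iron genes, 10 were higher and 8 lower, with a median of 0.01, and 0 passed. The iron median turned negative on the recovered reads, at -0.22 by edgeR and -0.24 by DESeq2. Ftl1 and Pcbp2 were the 2 members whose groups did not overlap, and both were lower in Mcph1-/-, beside 6.80% of all tested genes. Ftl1, the ferritin light chain, stood at 41262 ± 7171 in WT against 31735 ± 592 in Mcph1-/- (SD, n = 3; log2 difference -0.36, SE 0.15), and Pcbp2, which has been described as an iron chaperone, had a log2 difference of -0.82 (SE 0.32). Hmox2, the constitutive heme oxygenase, had -0.60 (SE 0.26). Hmox1, the inducible one, was at 725, 51.5 and 299 in WT and 145, 107 and 197 in Mcph1-/-.

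Oxidative stress genes went both ways. Of 19 tested genes of the NRF2 and glutathione list, 12 were higher and 7 lower, with a median of 0.09, and 0 passed over all genes. That median was 0.01 by edgeR and turned to -0.02 by DESeq2. Nfe2l2, which encodes NRF2, was at 608, 800 and 419 in WT and at 1149, 787 and 1687 in Mcph1-/- (log2 difference 0.97, SE 0.39; limma adjusted p = 0.639). Its highest values were those of Mcph1-/- replicates 3 and 1, and WT replicate 2 lay above Mcph1-/- replicate 2.
Glutathione genes differed among themselves. Gclm, the modifier subunit of glutamate-cysteine ligase, had a log2 difference of 0.90 (SE 0.32), while Gclc, the catalytic subunit and another target of MTF1, was at 59.6, 220 and 218 in WT and at 89.4, 0 and 219 in Mcph1-/-. Gstm1, a glutathione transferase, was lower in all 3 Mcph1-/- libraries, at 8341 ± 997 in WT against 6167 ± 464 in Mcph1-/- (SD, n = 3; log2 difference -0.43, SE 0.15). Txn1, thioredoxin, had a log2 difference of 0.49 (SE 0.20) and is named after its values were seen. Its groups barely separated, with Mcph1-/- replicate 3 at 3537 and WT replicate 1 at 3529. Among all tested genes, groups did not overlap in 6.80% with Mcph1-/- lower, like Gstm1, and in 7.40% with Mcph1-/- higher, like Txn1.

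Glucocorticoid genes included both higher and lower members. Of 10 tested genes, 4 were higher and 6 lower in Mcph1-/-, with a median log2 difference of -0.13, and 0 passed over all genes by limma-trend. Among all tested genes 53.8% were higher, and a list of 10 is too small to tell its share from that. By edgeR and DESeq2 the median was -0.38 and -0.41. Nr3c1, the glucocorticoid receptor, was at 481 ± 188 in WT against 458 ± 120 in Mcph1-/- (SD, n = 3), and Tsc22d3, an established target also called Gilz, at 3750 ± 583 and 3205 ± 733. Log2 differences were -0.02 (SE 0.47) and -0.24 (SE 0.22), within the spread between replicates. Nfkbia, the inhibitor of NF-kappa-B, was the 1 member whose groups did not overlap, beside 6.80% of all tested genes with Mcph1-/- lower. It was at 6565, 9406 and 5364 in WT and 5006, 5008 and 3580 in Mcph1-/- (log2 difference -0.63, SE 0.24). The clock gene Per1 had -1.57 (SE 0.72) and Sesn1, a sestrin, -0.54 (SE 0.35).

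Heat shock genes were more often higher than lower. Of 16 tested members, 13 were higher and 3 lower in Mcph1-/-, with a median of 0.27, and 0 passed over all genes by limma-trend. Over all tested genes 53.8% were higher, and whether the share in the list differs from that was not tested. The lower members, Hsf1, Dnajb1 and Hspb1, overlapped between genotypes. Some higher members had an SE above their log2 difference, such as Hsp90ab1 (0.09, SE 0.15). On the recovered reads the median was 0.44 by edgeR and 0.41 by DESeq2. In 5 of the 16 the groups did not overlap, all higher in Mcph1-/-, beside 7.40% of all tested genes: Hsp90aa1, Hspe1, Hspd1, and, named after their values were seen, Hspa8 and Dnaja1. Hsp90aa1, the inducible cytosolic HSP90, was at 1326, 1214 and 1967 in WT and at 2794, 2726 and 2900 in Mcph1-/-, with a log2 difference of 0.93 (SE 0.23; limma adjusted p = 0.540). Hspe1, the lid of the mitochondrial chaperonin, and Hspd1, the chaperonin itself, had log2 differences of 0.79 (SE 0.27) and 0.58 (SE 0.23). Hspa1a and Hspa1b, the classic inducible HSP70 genes, have no values here.

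**Figure D4:**
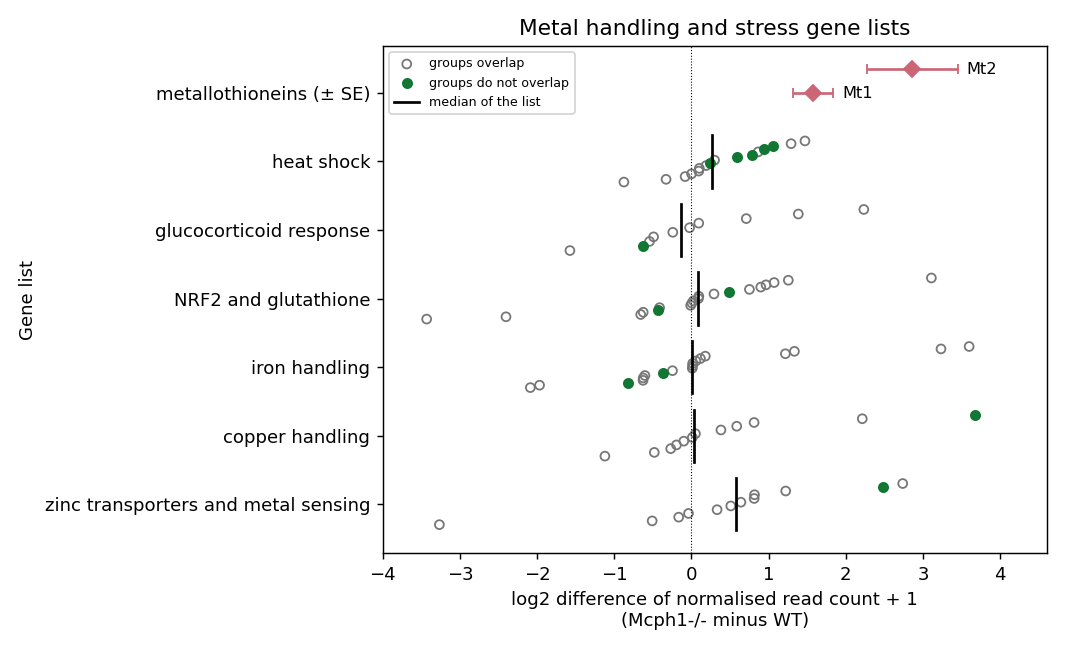
Log2 difference of normalised read count + 1 (Mcph1-/- minus WT) for each tested member of 6 gene lists, filled where the 3 libraries of one genotype all lie above those of the other, with black bars for list medians, and for Mt1 and Mt2 with their SE. Medians of these limma-trend values run from -0.13 (glucocorticoid response) to 0.57 (zinc transporters and metal sensing), where edgeR and DESeq2 put heat shock highest, and Mt1 and Mt2 stand at 1.58 and 2.86.

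The genes whose profile over the 6 libraries was most like the mean log2 profile of Mt1 and Mt2 were sought among 7835 genes with a symbol whose mean value reached 100. They were Ddx39a, an RNA helicase of messenger RNA export (Pearson r 0.99, Spearman rho 1), Ric1, a subunit of a Golgi exchange factor (0.99 and 0.83), Esco2, an acetyltransferase of cohesin (0.99 and 0.77), Hspe1 (0.98 and 0.94) and Gemin6 of the SMN complex (0.98 and 0.94). The profile they were matched to separates the genotypes, so their own separation is no finding. Ddx39a was at 1745, 2156 and 2268 in WT and at 4094, 5398 and 5978 in Mcph1-/-, a log2 difference of 1.32 (SE 0.21; limma adjusted p = 0.277). Like Mt1 and Mt2, it was highest in Mcph1-/- replicate 3. All 5 genes were higher in every Mcph1-/- library than in any WT library.

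The same libraries differed in markers of other blood cells, and the members of a class did not all go the same way. Genes named here that did not pass the test were chosen after their values were seen. Of 13 neutrophil markers, 6 have values, and their summed normalised count was 52138 to 65421 in WT and 296 to 13266 in Mcph1-/-. In 4 of them, S100a8, S100a9, Ngp and Camp, the groups did not overlap and Mcph1-/- was lower, as in 6.80% of all tested genes. S100a8, a neutrophil calcium-binding protein, was at 22359 ± 7481 in WT against 224 ± 91.8 in Mcph1-/- (SD, n = 3; limma adjusted p = 3.9e-04), and its partner S100a9 and the granule protein gene Ngp also fell (limma adjusted p = 0.024 and 0.0037).
Elane and Mpo, which encode granule enzymes made early in the neutrophil lineage, overlapped between genotypes. Elane was at 3614, 138 and 1.01 in WT replicates 1 to 3 and at 3.65, 0 and 8095 in Mcph1-/- replicates 1 to 3. Mpo was at 5959, 1.03 and 2.02 in WT and at 1.82, 53.3 and 4856 in Mcph1-/-. These 2 genes make up nearly all of the 13266 of Mcph1-/- replicate 3, the library that was also highest in Mt1 and Mt2.
Of 12 erythroid markers, 11 have values, and neither the globins nor the other members all separated the genotypes. Car2, Epor, Tfrc and the beta globin gene Hbb-bt overlapped. Hbb-bt was at 42.3, 13.4 and 256 in WT and at 43.8, 54.1 and 86.6 in Mcph1-/-. Groups did not overlap in 4 members that were higher in Mcph1-/- (Car1, Klf1, Blvrb and Ermap) and in 3 that were lower (Hba-a1, Hba-a2 and Hbb-bs), beside 7.40% and 6.80% of all tested genes. Car1, carbonic anhydrase 1, rose from 2724 ± 1605 in WT to 28533 ± 4268 in Mcph1-/- (SD, n = 3; limma adjusted p = 0.024). It has a large part in the summed count of the list, which was 20046 to 41907 in WT and 51870 to 57907 in Mcph1-/-. The alpha globin gene Hba-a1 was at 581, 251 and 8516 in WT and at 185, 55.0 and 101 in Mcph1-/- (log2 difference -3.40, SE 1.21; limma adjusted p = 0.626). Hbb-bs, a beta globin gene, was at 65.1, 24.7 and 2257 in WT and at 9.12, 0 and 9.82 in Mcph1-/-. Both were by far highest in WT replicate 3, and since alpha and beta globin copies are near-identical, their single values are uncertain. Alas2, the erythroid enzyme of heme synthesis, has no values.
Monocyte and macrophage markers, 5 of 10 with values, summed to 8031 to 12777 in WT and 4844 to 5129 in Mcph1-/-, and Lyz2, a lysozyme gene, makes up most of that sum. Lyz2 was at 10187 ± 2465 in WT against 4486 ± 124 in Mcph1-/- (SD, n = 3, limma adjusted p = 0.320). It was the 1 member whose groups did not overlap, beside 6.80% of all tested genes with Mcph1-/- lower. The complement genes C1qa and C1qb, made by macrophages, overlapped between genotypes. C1qa was at 318, 0 and 0 in WT and at 124, 127 and 213 in Mcph1-/-, so its highest library was a WT one. C1qb was at 0, 159 and 76.9 in WT and at 351, 82.9 and 124 in Mcph1-/-. Their log2 differences of 4.47 (SE 2.36) and 2.74 (SE 2.01) rest on the 0 reads in 2 and 1 of the WT libraries.
The surface gene Cd48, which is low on stem cells and higher on progenitors, was at 2.17, 120 and 101 in WT and at 296, 1153 and 514 in Mcph1-/- (limma adjusted p = 0.626). The summed count of the 12 stem cell markers overlapped between genotypes, at 10784 to 13743 in WT and 10138 to 11516 in Mcph1-/-, with 5 members higher and 7 lower. The transcription factor gene Meis1 was the 1 member whose groups did not overlap, beside 6.80% of all tested genes with Mcph1-/- lower. It was lower in Mcph1-/- (log2 difference -0.46, SE 0.20).
Summed markers of megakaryocytes (6 of 7 with values) overlapped between genotypes, at 1902 to 5033 in WT and 1336 to 2605 in Mcph1-/-, as did those of lymphoid cells (4 of 10), at 1277 to 3998 and 909 to 4249. The same held for stroma and endothelium (3 of 8), at 731 to 1584 and 123 to 754, and for Cpa3, the 1 of 5 mast cell and basophil markers with values, at 0 to 1332 and 19.2 to 201. The 6 lineage surface genes looked for have no values. In libraries of pooled cells, more cells with metallothionein RNA and more such RNA per cell cannot be told apart, and the part of these markers in the levels of Mt1 and Mt2 was not tested.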

How the data were processed

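RNA-seq was done on 6 libraries, 3 per genotype, with paired 150-base reads per the labels' protocols. Per the submitters' processing notes, Trim Galore 0.6.6, HISAT2, featureCounts, DESeq2 and mm10 were used, with no role or order; the sources used here give neither annotation release nor strand setting. The authors deposited a signal per gene and library, which proved to be reads over a library size factor (0.922 to 1.22): 100% of values are whole multiples of 1 read within 0.001 reads, and median-of-ratios factors recomputed from the recovered reads equalled them. Of the 11108 genes, each has reads in at least 4 libraries, and 444 have no symbol and were kept. The smallest total was 8102605 reads, where 3 reads come to a normalised count of 3.25.

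The fit was limma-trend (limma 3.58.1, R 4.3.3) on log2(value + 1) with genotype as its only term, over the 10846 genes with a mean of at least 10, with Benjamini-Hochberg adjustment at 0.05. The added 1 understates changes of genes that are low in every library. Where some libraries of a gene hold 0 reads, its log2 difference depends on the added 1. It can then be larger than the group means alone would give, as for Nup93 (6.10). Alternatives were a pseudocount of 16, other filters and scalings, edgeR 4.0.16 and DESeq2 1.42.0 on recovered reads, a replicate block, and each library left out. Positions and lengths come from GENCODE vM21 (mm10), matched for 96.2% of genes.

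The members, lists and tests were chosen with earlier results of these data known. Genes named were Mt1, Mt2, their listed neighbours, 9 regulators or targets, the 3 members of each list with the smallest p, and the 5 genes most alike; some genes that the rule or lists name are not reported here, and neighbours are described within 150 kb of the 200 kb set.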

Additional observations from a re-analysis of the deposited data

How the results depend on the processing

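The log2 difference (Mcph1-/- minus WT) kept its sign and moved by less than the within-group SD under all 12 alternatives, from 1.36 to 1.74 for Mt1 and from 2.62 to 3.13 for Mt2, with each lowest value reached without Mcph1-/- replicate 3. The difference of the log2 ratio of Mt1 to Mt2 likewise stayed within its SD under all 8 alternatives, from -1.52 to -0.98. The replicate numbers are shared between genotypes, but same-numbered libraries did not deviate together over the tested genes (correlations -0.01, 0.02 and -0.03). Noise between libraries could hide a shared preparation, so whether the numbers mark pairs is not known. A fit with the replicate block called 3 genes against 4. The count of called genes depended on the tool: edgeR's quasi-likelihood test on the recovered reads called 2 genes and neither member, and DESeq2 called 234 of the 5369 genes to which it gave an adjusted p (4.36%), both members among them. Leaving out 1 library gave 1 to 4 called genes: 1 without WT replicate 1 or 2 and 2 without Mcph1-/- replicate 1. List medians moved with the tool: over 4 alternatives each, the zinc median ran from 0.28 to 0.60, copper from 0.03 to 0.17, glucocorticoid from -0.41 to -0.10 and heat shock from 0.27 to 0.44, while iron (-0.24 to 0.04) changed sign under edgeR's test and DESeq2, and NRF2 and glutathione (-0.02 to 0.11) under DESeq2. Depth limits Mt2 most, with 72 reads in WT replicate 2, and its overlap with Gm45774 leaves its level uncertain.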
